A study of Caenorhabditis elegans with 2 samples.

Results

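The genes described here are 10 genes for the structure of Caenorhabditis elegans body wall muscle: unc-112, unc-23, unc-60, unc-27, unc-54, myo-3, unc-15, unc-45, unc-22 and unc-89. They are 10 of 19973 protein-coding genes on nuclear chromosomes, and all 10 were matched by name in the Ensembl release 115 annotation. They were picked from earlier results of the same chromatin immunoprecipitation and sequencing (ChIP-seq) data, in which some muscle genes carried a promoter peak and others did not. Their promoter calls are therefore a description, with no test.

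The animals were whole L4 larvae, 48 hours old and synchronised as starved L1 larvae, in 1 group of 2 biological replicates. All came from strain RW12203, in which CRISPR placed a TY1, EGFP and 3xFLAG tag in frame with ctbp-1 on X (allele st12203), and an anti-GFP antibody was used. CTBP-1 is the worm C-terminal binding protein, which represses transcription together with DNA-binding factors. No untagged animals and no second condition were analysed here, and whole larvae cannot show whether DNA was bound in muscle or in another tissue.

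Body wall muscle of the worm is striated and is fixed to the body wall along its whole length. Thick filaments hold myosin around a paramyosin core, thin filaments hold actin with tropomyosin and troponin, and integrin complexes at dense bodies and M-lines anchor the filaments to the matrix. Force then passes through the epidermis to the cuticle.

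Among the 10 genes, promoter summits were called at most attachment and actin genes and at no thick filament gene. A promoter summit is the highest point of a peak, between 1000 bp upstream and 250 bp downstream of the 5' end of a protein-coding transcript. In the series-level thresholded list, which holds 2927 peaks, 3 of the 10 genes had one: unc-112, unc-23 and unc-60. Over all protein-coding genes 7.12% did (1422 genes), a share from which nothing is read here because the genes were chosen on these calls. Attachment and actin genes gave 3 of 4, and thick filament genes gave 0 of 6. This split puts the chaperone gene unc-23 with attachment and the chaperone gene unc-45 with thick filaments, by the structures they serve. The thresholded list of each replicate called these 3 genes too, against 3.78% of all genes for replicate 1 and 4.52% for replicate 2. The series-level list, on which the genes were chosen, derives from the same replicates, so nothing is read from this either. Of the 1422 genes called in the series-level list, 603 (42.4%) were called in both replicate lists and 444 (31.2%) in neither.

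**Figure D1:**
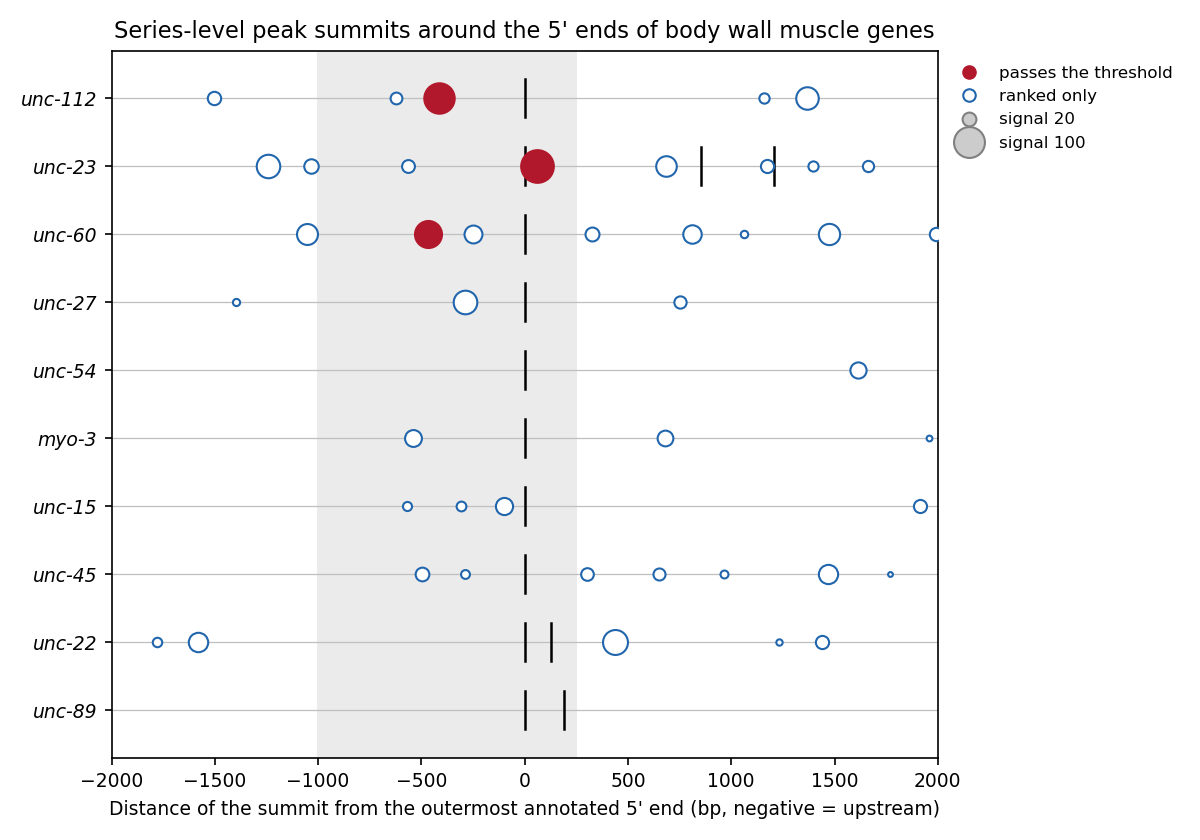
Each circle is a peak summit of the series-level ranked list, placed by its distance in bp from the outermost annotated 5' end of the gene, with an area that grows with the authors' signal value. Filled circles passed the threshold, black bars are annotated 5' ends and the grey band is the promoter window of the outermost 5' end. Only unc-112, unc-23 and unc-60 have a filled circle in this range, at 413 bp upstream, 60 bp downstream and 468 bp upstream.

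The first attachment gene, unc-112 (V:14691855-14696654, minus strand), encodes the worm kindlin, which binds integrin at dense bodies and M-lines. Its summit at V 14697067 lay 413 bp upstream of its only annotated 5' end. The series-level signal value there was 96.8, against 49.1 for replicate 1 and 58.6 for replicate 2, in the authors' units, which can be compared within a list only. The peak ranked at 1179 of 2927 by signal, at 1083 of 1404 in replicate 1 and at 904 of 1715 in replicate 2, so it lay below the middle of both replicate lists. The replicate summits were 392 and 443 bp upstream. No other protein-coding 5' end was nearer. The next was that of set-5, at 1899 bp, which is transcribed away from unc-112 across 2311 bp of sequence between the genes.

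The second attachment gene, unc-23 (V:8936359-8939684, plus strand), encodes a BAG family cochaperone of Hsp70 that is needed to keep muscle attached to the body wall. Its summit at V 8936419 was the strongest of the 3, with a series-level signal of 111.7, a replicate 1 signal of 64.1 and a replicate 2 signal of 58.8. It lay inside the gene, in an annotated exon, 60 bp downstream of the first of 3 annotated 5' ends. It was the only thresholded summit inside any of the 10 genes, where 4.47% of all protein-coding genes had a summit inside. The replicate summits lay 103 and 83 bp downstream. Ranks by signal were 903 of 2927, 659 of 1404 and 896 of 1715. A separate thresholded summit at V 8939984 (signal 79.95) lay 300 bp beyond the 3' end of unc-23. Its signal was 66.7 in the replicate 1 list, where it passed the threshold, and 21.3 in the replicate 2 list, where it did not.

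The reference sequence at each of these summits is shown because it is the DNA at the centre of the called peak. Each stretch is 151 bases of WBcel235 from RefSeq centred on the series-level summit, read 5' to 3' on the strand of the gene. Capitals mark GAGAGA on either strand, which reads TCTCTC on the strand shown when it lies on the opposite strand. The stretches are V:14696992-14697142 (minus strand) for unc-112 and V:8936344-8936494 (plus strand) for unc-23.
unc-112: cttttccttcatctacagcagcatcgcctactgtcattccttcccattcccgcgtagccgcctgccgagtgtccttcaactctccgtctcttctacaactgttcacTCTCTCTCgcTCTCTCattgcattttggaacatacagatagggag
unc-23: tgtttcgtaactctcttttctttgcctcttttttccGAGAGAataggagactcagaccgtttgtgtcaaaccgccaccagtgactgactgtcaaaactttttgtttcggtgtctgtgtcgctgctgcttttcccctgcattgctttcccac
At unc-112 the capitals form 2 nearby runs downstream of the summit, with 3 overlapping or separate matches, and at unc-23 there is 1 match. GAGAGA occurred in 31.3% of the 2911 windows of this width at nuclear thresholded summits and in 10.9% of the 29304 windows centred on protein-coding 5' ends.

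Among the actin genes, unc-60 (V:1475086-1479576, plus strand) encodes actin depolymerising factor, or cofilin, proteins that turn over actin filaments, and the locus is known for a muscle form and a non-muscle form. In the annotation its first exon, of 56 bp, has the same start and end as the first exon of F53E2.2, so the promoter belongs to both genes and the summit cannot be given to one of them. The series-level summit at V 1474618 lay 468 bp upstream of this shared 5' end. The series-level signal was 76.45, with 46.8 for replicate 1 and 46.9 for replicate 2 and with ranks of 1811 of 2927, 1160 of 1404 and 1332 of 1715. The summits were 276 bp upstream in replicate 1 and 486 bp upstream in replicate 2. A second ranked summit at 249 bp upstream (V 1474837, signal 33.5) missed the threshold of the series-level list and was kept in the conservative list. Further upstream, summits at 2806 bp (signal 59.35) and 3337 bp (signal 61.8) passed the series-level threshold and passed in neither replicate list.

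The other actin gene of the 10, unc-27 (X:8789456-8790621, plus strand), encodes a troponin I, the inhibitory subunit of the troponin complex on thin filaments. It had no thresholded summit within its promoter window and was the gene nearest to the threshold from below. Its only ranked promoter peak had a summit at X 8789167, 289 bp upstream, with a series-level signal of 58.4, and 36.6 and 23.7 for replicates 1 and 2. The threshold is set on the irreproducible discovery rate (IDR), which measures how alike a peak ranks in paired lists, and peaks with a global IDR of at most 0.01 pass. This rate was 0.0268 at unc-27, compared with 0.00249 at unc-60, 0.00042 at unc-112 and 0.000177 at unc-23. Signal alone does not set the call, since 359 nuclear thresholded peaks had a lower signal than the unc-27 peak and 591 of the 82385 nuclear peaks that missed the threshold had a higher one. From the unc-27 5' end it was 7436 bp to any thresholded summit.

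The sequences at unc-60 are shown for both summits, because the replicates placed their summits near different ones, and that at unc-27 because the peak just missed. Capitals again mark GAGAGA on either strand. The stretches are V:1474543-1474693 and V:1474762-1474912 (plus strand) for unc-60 and X:8789092-8789242 (plus strand) for unc-27.
unc-60 at 468 bp upstream: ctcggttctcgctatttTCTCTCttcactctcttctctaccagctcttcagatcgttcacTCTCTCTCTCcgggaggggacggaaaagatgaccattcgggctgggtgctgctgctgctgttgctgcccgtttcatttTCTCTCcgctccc
unc-60 at 249 bp upstream: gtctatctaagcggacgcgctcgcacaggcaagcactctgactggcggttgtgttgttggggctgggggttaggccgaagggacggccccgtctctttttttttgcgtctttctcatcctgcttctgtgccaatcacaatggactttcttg
unc-27: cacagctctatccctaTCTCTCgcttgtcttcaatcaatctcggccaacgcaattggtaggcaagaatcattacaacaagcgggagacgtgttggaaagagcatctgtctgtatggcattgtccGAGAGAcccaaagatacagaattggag
The window at 468 bp upstream of unc-60 held 5 matches, counting overlaps, and the window at 249 bp upstream held none, although their GC contents were close, at 54.3% and 55%. The unc-27 window held 2 matches, 1 on each strand as printed.

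**Figure D2:**
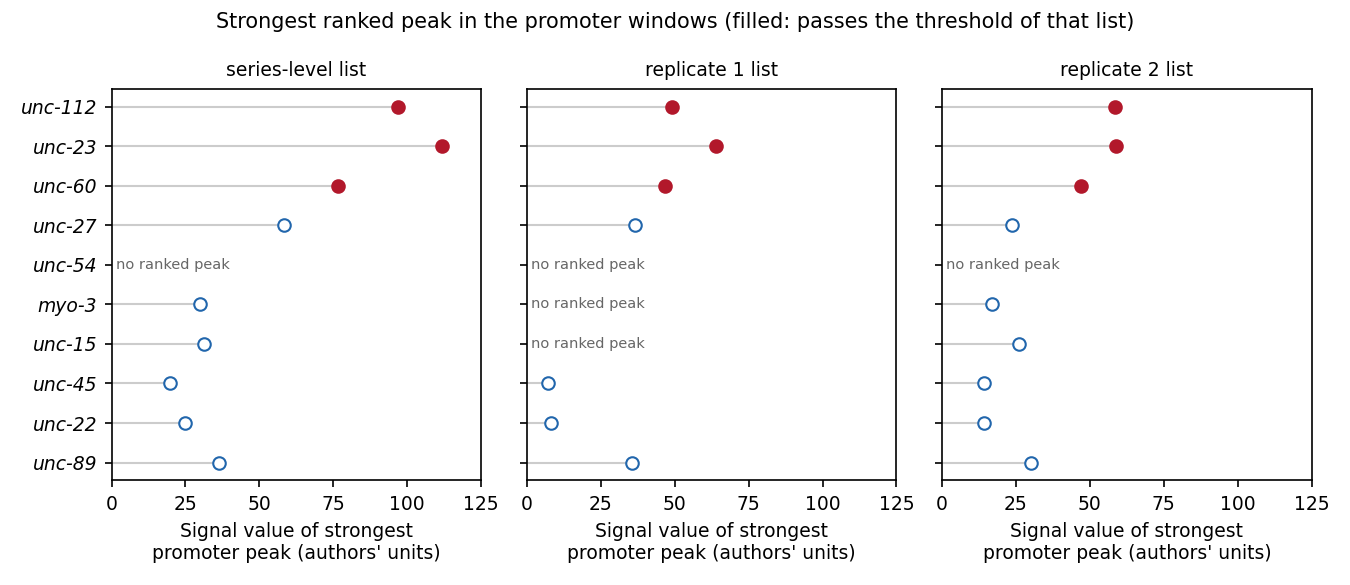
Points give the signal value, in the authors' units, of the strongest ranked peak in the promoter windows of each gene, in the series-level list and the lists of replicates 1 and 2. Filled points are genes called in the thresholded list of that panel, and unc-54, myo-3 and unc-15 have no ranked promoter peak in replicate 1.

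The thick filament genes had weaker promoter peaks or none. Here the strongest peak of the ranked lists is given, which hold every peak before the threshold. Over all protein-coding genes 61.8% had a ranked promoter summit, so such a peak is common and is not a call. The median over genes of the strongest ranked promoter signal was 16.5, with genes without a peak counted as 0. The median was 27.3 for the 6 thick filament genes and 86.6 for the 4 attachment and actin genes. In the series-level list the groups did not overlap, since the highest thick filament value, 36.4 at unc-89, was below the 58.4 of unc-27. That separation can come from the choice of genes, which used these values. It also depends on the 250 bp downstream limit of the windows. A ranked unc-22 peak just past that limit had a series-level signal of 65.1, above the 58.4 of unc-27. A window reaching past that peak would make the groups overlap. In replicate 1 the separation was narrow, with 35.5 at unc-89 and 36.6 at unc-27. In replicate 2 the groups overlapped, since unc-89 (29.95) and unc-15 (26.1) exceeded unc-27 (23.7).

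The myosin heavy chain gene myo-3 (V:12226817-12234343, minus strand) encodes myosin A, which fills the centre of the thick filament. Its only ranked promoter peak lay 540 bp upstream, at V 12234883, with a series-level signal of 29.8, a replicate 2 signal of 16.8 and no overlapping peak in the ranked list of replicate 1. The global IDR was 0.399. The gene has 7082 bp of sequence before its upstream neighbour ttr-22, and this peak was the strongest of the 4 ranked there. Its nearest thresholded summit was 57464 bp away, the farthest of the 10 genes. The sequence at the ranked summit (V:12234808-12234958, minus strand) is shown for contrast with the called genes. Capitals mark GAGAGA and, on the opposite strand, the GC-rich site CCGCCC.
myo-3: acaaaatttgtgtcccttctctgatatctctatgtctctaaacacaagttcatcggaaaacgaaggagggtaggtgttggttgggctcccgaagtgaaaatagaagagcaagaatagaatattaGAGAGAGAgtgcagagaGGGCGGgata
The myo-3 window held 2 overlapping GAGAGA matches, so these letters were also present at a peak far from the threshold. They were present at the strongest promoter peak of 7 of the 9 genes that had one, namely unc-112, unc-60, unc-23, unc-27, unc-15, unc-45 and myo-3. The shares of 31.3% at thresholded summits and 10.9% at 5' ends are for other kinds of window. The share over the strongest ranked promoter peaks of all genes was not computed, so nothing is read from this count.

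The other thick filament genes gave the same picture with differences in detail. At unc-54 (I 14855901 to 14863482), which encodes the major myosin heavy chain B, no list of either kind held a peak in the promoter window. The 4441 bp up to its divergent neighbour F11C3.1 held none in the series-level ranked list. The ranked lists of replicates 1 and 2 each held a peak in this stretch, with signals of 14.27 and 11.11. The 9 series-level ranked summits inside the gene reached a signal of 37.4, at 6143 bp downstream of the 5' end. At unc-15 (I 7376604 to 7383197), the gene for paramyosin, the strongest ranked promoter signals were 31.2, at 170 bp downstream of the inner of its 2 5' ends, and 30.8, at 102 bp upstream of the outer one. Both had a peak in replicate 2, with signals of 26.1 and 20.8, and none in replicate 1.

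The myosin chaperone gene unc-45 (III 491547 to 502625), whose product folds the myosin head, had a ranked promoter peak with a signal of 19.6, at 498 bp upstream, with 7.33 in replicate 1 and 14.2 in replicate 2. A strong thresholded peak lay just beyond its other end. The summit at III 502774 was 149 bp past the 3' end of unc-45 and within 200 bp of the small nucleolar RNA gene F30H5.4. The series-level signal was 207.6, and replicates 1 and 2 gave 97.6 and 116, higher than at any called promoter of the 10 genes. It lay 11227 bp from the unc-45 5' end and is not counted for the gene.

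The giant proteins twitchin, a kinase of the A-band encoded by unc-22 (IV 11972697 to 12011007), and the obscurin-like M-line protein encoded by unc-89 (I 4035702 to 4090885) come from the longest genes of the set. Of all protein-coding genes of at least 10 kb, 24.2% had a thresholded summit inside (242 of 998), and none of the 3 such genes here, unc-22, unc-89 and unc-45, did. Ranked summits inside the gene numbered 48 in unc-22 and 57 in unc-89, which is 1.25 and 1.03 per kb, against a median of 1.08 per kb over genes of at least 10 kb.

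At unc-22 the strongest promoter signal was 24.9, at 89 bp downstream of an inner 5' end, with 8.09 in replicate 1 and 14.0 in replicate 2. A stronger peak lay in an intron just outside the windows, 437 bp downstream of the outermost 5' end (IV 12010570, signal 65.1, global IDR 0.0641). It had a signal of 45.7 in replicate 2, where it passed the threshold, and no overlapping peak in the ranked list of replicate 1. The replicate 2 summit lay 283 bp downstream of the nearest annotated unc-22 5' end, a little past the 250 bp limit. The absence of a thick filament call in replicate 2 thus depends on that limit. A peak at IV 12005553, within 200 bp of a tRNA gene that lies inside unc-22, had a signal of 64 and a global IDR of 0.0137. It missed the series-level threshold and passed in the conservative list, with signals of 35.0 in replicate 1 and 29.0 in replicate 2.

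At unc-89, which has 5 annotated 5' ends, the strongest promoter signal in the series-level ranked list was 36.4, at 73 bp upstream of an inner 5' end (I 4081434), with 23.04 in replicate 1 and 14.4 in replicate 2. Both replicates had a stronger ranked peak elsewhere, about 352 bp upstream of another inner 5' end, with signals of 35.5 in replicate 1 and 29.95 in replicate 2. No peak of the series-level ranked list overlapped it, so the series-level value for unc-89 leaves it out. The global IDR of this peak was 0.0665 and 0.0883 in replicates 1 and 2, and it passed in neither.

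**Figure D3:**
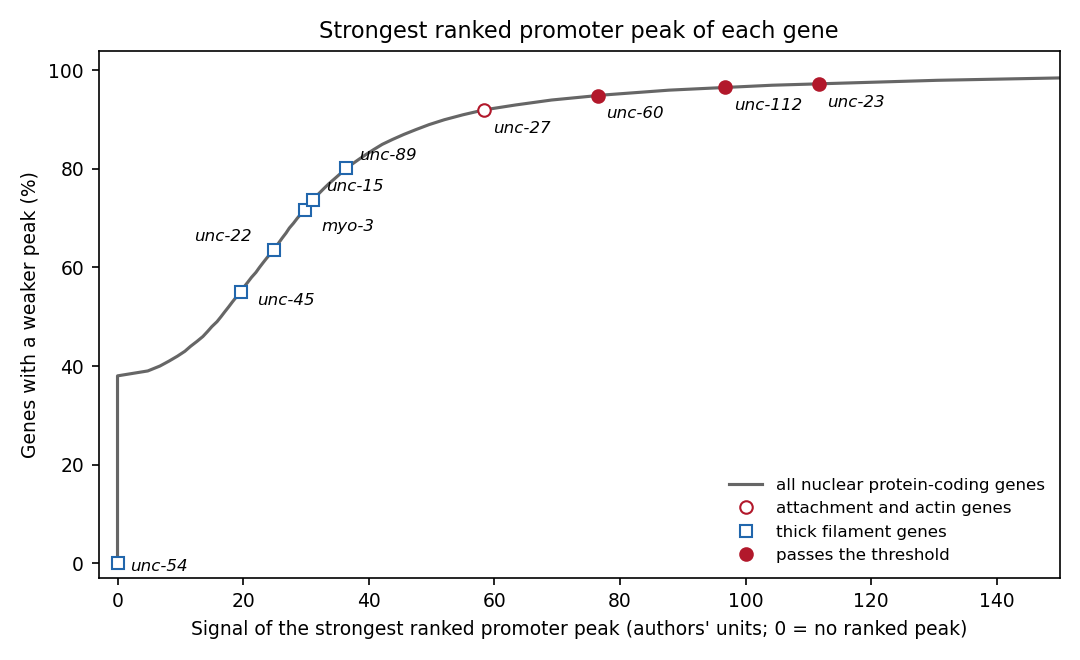
The line gives, for all protein-coding genes, the share with a strongest ranked promoter peak weaker than the signal on the horizontal axis, in the authors' units. The 4 attachment and actin genes (circles) lie between 58.4 and 111.7 and the 6 thick filament genes (squares) between 0 and 36.4, and filled symbols passed the threshold.

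Placed among all genes, the strongest ranked promoter signal of unc-23 exceeded that of 97.3% of genes, that of unc-112 96.6%, that of unc-60 94.9% and that of unc-27 92%. For the thick filament genes the shares were 80.1% at unc-89, 73.8% at unc-15, 71.7% at myo-3, 63.6% at unc-22 and 55% at unc-45, and unc-54 had no peak. Genes with more 5' ends have more sequence in their windows. The windows of the thick filament genes covered 2716 bp on average, those of the attachment and actin genes 1553 bp and those of all genes 1510 bp. The part of window length in the calls was not tested.

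The genes also shared features that the promoter call did not use. All 3 called genes lie on chromosome V, but so does myo-3. The gap to the nearest protein-coding gene upstream was 2311 bp at unc-112, 2031 bp at unc-23 and 3980 bp at unc-60, within the range of 1200 to 7082 bp for the other 7 genes. The called summits had no small noncoding RNA gene of the classes tRNA, snRNA and snoRNA within 200 bp. Nor did the ranked promoter peaks of the other genes. Of nuclear thresholded summits 10.6% lay that near to a tRNA gene, so most had no tRNA gene there. GC content in the 151 bp at the summit was 50.3% at unc-112, 54.3% at unc-60 and 46.4% at unc-23, against a median of 46.4% over nuclear thresholded summits and 36.4% over 5' ends. At the ranked peaks of the other 6 genes with a peak it ranged from 38.4% at unc-22 to 50.3% at unc-15. None of the windows at the strongest promoter peaks held the E-box CACGTG, the E-box CAGCTG bound by MyoD family factors, or the CArG box of serum response factor. Over all nuclear thresholded summits and all 5' ends these occurred in 4.6% and 3.18% of windows for CACGTG, in 4.53% and 3.32% for CAGCTG and in 0.515% and 0.751% for the CArG box. CCACCC or CCGCCC, found in 14.3% and 6.58%, occurred at unc-45 and myo-3 alone. A match describes the letters and is not shown to be a bound site.

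Other genes of the same structures were counted from lists that were written with earlier results of these data known. The lists hold 128 genes, of which 24 (18.8%) had a promoter summit, where 7.12% of all genes did. Without the 10 genes described above the count was 21 of 118 (17.8%). Of the 128 genes, 10 were called in replicate 1, where 3.78% of all genes were, and 14 in replicate 2, where 4.52% were. In every list the promoter windows were longer on average than the 1510 bp of all genes, and the part of this in the counts was not tested. Input coverage and transcript levels were not used here.

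**Figure D4:**
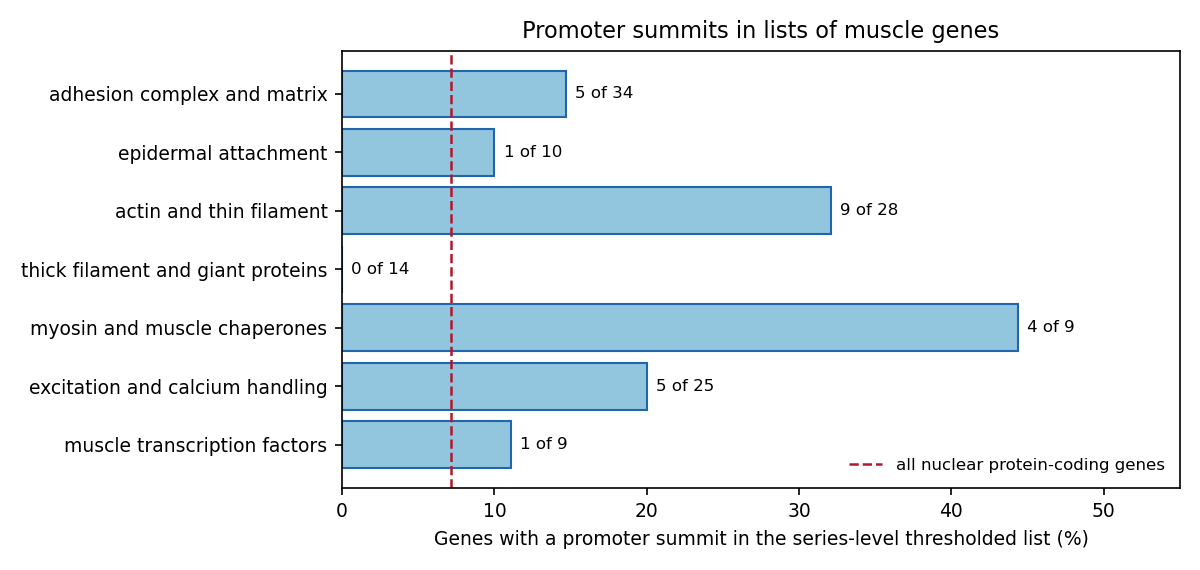
Bars give the percentage of each muscle gene list that had a thresholded promoter summit, with the count beside each bar. The lists include the genes described above, which were chosen on their calls. The dashed line is the share of all protein-coding genes, 7.12%, and the bars run from 0 of 14 thick filament genes to 4 of 9 chaperone genes, with 9 of 28 actin and thin filament genes.

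Actin and thin filament genes carried promoter summits at 9 of 28 (32.1%), where 7.12% of all genes did. Without unc-60 and unc-27 the count was 8 of 26. The strongest summit was at cap-2, an actin capping protein gene, with a series-level signal of 272.5, and 113.6 and 164.7 for replicates 1 and 2. Its summit lay 234 bp from cap-2 and 242 bp from gmps-1, so either gene could own it. All 4 actin genes listed were called. The act-4 peak (signal 126.5, with 53.9 and 69.7 in replicates 1 and 2) passed in both replicate lists. The act-1 (98.85), act-2 (68.01) and act-3 (55.9) peaks passed in neither. These genes are close copies in 1 cluster, where reads may not be assigned uniquely. Whether this bears on the calls was not tested.

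Both troponin T genes that were called, mup-2 (signal 98.1) and tnt-2 (85.8), were also called from replicate 2 but not from replicate 1. Their signals were 44.5 and 55.5 at mup-2, and 30.9 and 50.8 at tnt-2, in replicates 1 and 2. The profilin gene pfn-2 (59.4) was the ninth and passed in neither. The tropomyosin gene lev-11 (strongest ranked signal 55.2) and the troponin C gene pat-10 (53.6) were not called. The replicate lists held 3 of the 28 genes in replicate 1 and 5 in replicate 2. Over all genes the shares called were 3.78% and 4.52%.

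Adhesion complex and matrix genes gave 5 of 34 (14.7%), and 4 of 33 without unc-112, where 7.12% of all genes were called. Their promoter windows averaged 2687 bp, against 1510 bp for all genes. The integrin beta gene pat-3, with a strongest ranked signal of 39.6, and the vinculin gene deb-1, with 37.4, were not called, nor was the integrin alpha gene pat-2, which had no ranked promoter peak. The called genes were the alpha-actinin gene atn-1 (signal 73.4), the LIM domain genes lim-8 (66.9) and lim-9 (66.45), and sax-7 (58.5), a cell adhesion molecule gene. All 4 passed in neither replicate list, so unc-112 was the only adhesion gene called in both. The lim-8 summit lay within 200 bp of a tRNA gene, and the lim-9 peak held a second summit with a signal of 20.01. Genes that anchor muscle through the epidermis gave 1 of 10, which was unc-23, a share near the 7.12% of all genes, and 0 of 9 without it.

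Thick filament and giant protein genes gave 0 of 14 in the series-level list, where 7.12% of all genes were called, and 0 in both replicate lists. Without unc-54, myo-3, unc-15, unc-22 and unc-89, which were chosen on their calls, 0 of 9 were called in the series-level list. With so few genes a count of 0 is near the 7.12% of all genes, and mak-1 was called under 3 of the alternatives. Their median strongest ranked signal was 32.5, close to the 36.1 of the actin list and the 35.8 of the adhesion list and above the 16.5 of all genes. The highest were the pharyngeal myosin gene myo-1 (57) and the regulatory myosin light chain gene mlc-2 (53.8), and the titin-like gene ttn-1 had 14.9. Windows averaged 2690 bp in the thick filament list and 1735 bp in the actin list. No difference between lists was tested, since the genes were picked with earlier results known.

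Chaperones that act on myosin and muscle proteins gave 4 of 9 (44.4%), and the same 4 in each replicate list. Over all genes the series-level share was 7.12%, and replicates 1 and 2 gave 3.78% and 4.52%. Without unc-23 and unc-45, which were chosen on their calls, 3 of 7 were called. Besides unc-23 these were hsp-90 (signal 283), the cytosolic Hsp90 with which UNC-45 works, hsp-1 (170.5), the constitutive Hsp70, and hsp-110 (141.4), an Hsp70 exchange factor. The hsp-90 and hsp-110 summits lay nearer to other genes, at 284 bp from C47E8.4 against 391 bp and at 206 bp from rpn-3 against 238 bp. The myosin chaperone gene unc-45 itself was not called.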

How the data were processed

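Peak lists on build ce11 were deposited for the series and for each of 2 biological replicates of tagged CTBP-1 larvae, per the labels. The sources used here do not give the aligner, the peak caller or the read depth, so no value has a known depth. Signal values were deposited by the authors and taken as they stand. The deposited score is the IDR on a scaled axis, and the ranked lists also hold the -log10 of the global IDR. In the series-level ranked lists 16 columns of single inputs were not used.

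Summits, counted from 1, were placed on WBcel235, which has the ce11 coordinates, with the Ensembl release 115 annotation, using Python 3.11.15 and NumPy 2.4.6. No nuclear peak ended beyond the sequence. A gene was called when a thresholded summit lay in the window of any of its protein-coding 5' ends. Replicate values are those of the strongest overlapping ranked peak (at least 1 bp). The placement was tested on simulated data. Motifs were searched on both strands within 75 bp of a summit: GAGAGA, the E-box CACGTG, the E-box CAGCTG, the GC-rich CCACCC or CCGCCC, and the CArG box.

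The 10 genes, the gene lists and the motifs were chosen with earlier results of these data known, so no test was run. The text names the 10 genes, listed genes with a promoter summit and genes whose 5' end lay nearer to a summit. Genes of the lists without a summit (lev-11, pat-10, pat-3, deb-1, pat-2, myo-1, mlc-2, ttn-1 and unc-68) were named after their values were seen. Alternatives were the conservative list, each replicate left out, longer and shorter promoter windows, the nearest 5' end, overlap of the whole peak, no peaks near small noncoding RNA genes, peaks above the median signal, and the 5' ends of all transcripts. Of these 10, the last was added after the data were seen and 9 were listed at the start.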

Additional observations from a re-analysis of the deposited data

How the results depend on the processing

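Promoter calls at unc-112 and unc-23 held under all 10 alternatives and at unc-60 under 9, since its peak lies below the median signal and is lost when weaker peaks are dropped. The 7 genes without a call gained none. The longer promoter window was applied to the series-level list alone. In the replicate 2 list it would take in the unc-22 summit at 283 bp downstream of a 5' end. The share of all genes called ran from 3.78% in replicate 1 alone to 10.7% with nearest 5' ends. The 10 genes held 3 promoter summits, 5 in the conservative list, which adds lower summits at unc-112 and unc-60, and 5 with nearest 5' ends. The count with a summit inside the gene was 1, or 2 in the conservative list and with any overlap of the peak, and from 1 to 2 when a replicate was left out. The added gene was unc-22, or unc-45 with any overlap. The 24 calls in the muscle lists became 10 to 14 when a replicate was left out, 12 with peaks above the median signal alone and 41 with nearest 5' ends. With nearest 5' ends the epidermal list rose from 1 to 4 of 10, and thick filament genes of the wider list gained mak-1, as with the longer promoter window and with any overlap. Leaving out a replicate used the list of the other one alone, which is shorter. No paired analysis was possible because there was 1 group. No read counts were used, so the error of single signal values is unknown.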

Other observations

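Genes for excitation and calcium handling in muscle had promoter summits at 5 of 25, where 7.12% of all genes did. The count was 10 with the longer promoter window and 11 with nearest 5' ends, which called 10% and 10.7% of all genes. These were the calcium channel subunit gene unc-36 (signal 69.3), the junctophilin gene jph-1 (105.8), the potassium channel genes slo-2 (96.7) and sup-9 (71.7), and lev-8 (81.4), a subunit gene of the levamisole-sensitive acetylcholine receptor. Promoter windows in this list averaged 2376 bp, against 1510 bp for all genes. None of the 5 called genes passed in both replicate lists. The slo-2 and jph-1 peaks passed in replicate 1 alone, the lev-8 and unc-36 peaks in replicate 2 alone, and the sup-9 peak in neither. The ryanodine receptor gene unc-68, named after its value was seen, had a strongest ranked signal of 15.4. Genes for muscle transcription factors gave 1 of 9, mxl-3 (65.4), a Max-like factor that is better known from the intestine, and its peak did not pass in replicate 1. That count is near the share over all genes, 7.12%.

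The peak that both replicates ranked upstream of an inner unc-89 5' end, and that no series-level ranked peak overlapped, is of a kind that was uncommon among the stronger peaks. Of the nuclear ranked peaks with a signal above 29, 90 of 4126 (2.18%) in replicate 1 and 73 of 4106 (1.78%) in replicate 2 overlapped no series-level ranked peak. The share among weaker peaks was not computed. Peaks can also pass in the conservative list and miss the series-level one, as at the tRNA gene inside unc-22.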
